A study of Mus musculus with 27 samples.

Results

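Lamin B1 knockdown (KD) was compared with control (C) in untreated NMuMG cells, an epithelial line from the normal mammary gland of the mouse. KD cells were infected with lentivirus carrying a short hairpin RNA (shRNA) against lamin B1, and C cells with lentivirus carrying an irrelevant shRNA. Both groups had received the virus and were grown with insulin and serum, and neither of them had received TGF-β. The comparison holds 4 RNA-seq libraries, 2 of C and 2 of KD cells, of the 12 libraries of the knockdown experiment, whose other 8 came from C and KD cells given TGF-β and collected at 8 h or 24 h. The methods call the 2 libraries of a group biological replicates. The hairpin sequence and the number of hairpins are not given in the sources used here, so all effects belong to KD cells as made with this virus. Expression was given as FPKM, a level corrected for transcript length and for the size of each library, and 11450 of 24247 genes listed reached an FPKM of 1 in at least 2 of the 12 libraries and were tested.

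Lamin B1, encoded by Lmnb1, is an intermediate filament protein that is farnesylated and lines the inner face of the nuclear membrane together with lamin B2 and the A-type lamins. The lamina holds silent, gene-poor chromatin at the nuclear edge, and a smaller pool of lamins lies in the nuclear interior. Loss of B-type lamins is known for its links to altered nuclear shape, to cell cycle exit and to changes in gene position.

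The labelled cell type was read against its markers, and some of them were absent. The keratins Krt8 and Krt18 were between 2153 and 2637 FPKM in the 4 libraries, and Cdh1, the gene of E-cadherin, was between 106 and 127 FPKM. Of 22 epithelial markers 13 reached 1 FPKM in any of the 4 libraries. The same was true of 7 of 14 basal and 3 of 16 luminal mammary markers. Other defining epithelial genes, Epcam, Cldn4 and Cldn7 among them, were nearly absent in C and KD cells alike. Epcam lay between 0.202 and 0.387 FPKM, and Cldn4 and Cldn7 did not exceed 0.0204 FPKM. Hnf4a, a transcription factor of liver and gut, was between 67.7 and 105 FPKM, and Alb, a liver gene, was between 20.9 and 226 FPKM. The identity of the cells was not tested beyond these levels. The milk genes Csn2, Wap and Lalba were listed at 0 in all 4 libraries, and the 12 fibroblast and endothelial markers summed to between 0.152 and 0.411 FPKM. Of the 10 leukocyte markers listed, 2 reached 1 FPKM in any of these libraries, and their sum, nearly all of it Cd14, was 96.6 and 84.9 FPKM in C cells and 112 and 109 FPKM in KD cells. Cd14 itself was called higher (0.29 on the log2 scale, adjusted p = 0.0264), a call lost without C replicate 2 or either KD library. In bulk RNA fewer cells of a type and less RNA per cell cannot be told apart. The C libraries differed more between themselves (median gap between replicates 0.098 on the log2 scale) than the KD libraries (0.042), and Pearson's r across genes was 0.981 within C cells, 0.983 within KD cells and 0.970 to 0.980 between the groups.

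Knockdown lowered lamin B1 mRNA to 27.8% of its control mean. Lmnb1 was at 29.2 and 36.5 FPKM in C cells and at 9.01 and 9.27 FPKM in KD cells, so both KD libraries lay well below both C libraries. The difference was -1.73 (SE 0.18) on the log2 scale, on which all differences below are given as KD minus C after adding 1 to the FPKM (limma, Benjamini-Hochberg adjusted over all genes tested, adjusted p = 0.000573). Lmnb2, the other B-type lamin, fell as well. It was at 19.3 and 21.8 FPKM in C cells and 15.7 and 15.4 FPKM in KD cells (log2 difference -0.38, SE 0.06, adjusted p = 0.00336). Lmna, the gene of the A-type lamins, was at 351 and 390 FPKM in C cells and 327 and 336 FPKM in KD cells. Its difference of -0.16 (SE 0.06) did not pass the test (adjusted p = 0.0870).

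Among 21 genes of the lamina and the inner nuclear membrane, 5 fell and 1 rose, with a median difference of -0.03 beside -0.0069 over all genes tested. The background was 9.09% of tested genes lower and 10.6% higher, or 19.7% called in either direction. Besides the B-type lamins, the genes that fell were Tmpo, which encodes the LAP2 proteins that bind lamins and chromatin (-0.25), Fntb, a subunit of the enzyme that farnesylates lamins (-0.21), and Lemd3, an inner membrane protein that binds Smads (-0.20). Tmem43, a membrane partner of emerin, was at 37.5 and 37.4 FPKM in C cells and rose to 48.7 and 47.6 FPKM in KD cells (0.35, SE 0.04, adjusted p = 0.000668). The lamin B receptor Lbr (0.04), emerin (Emd, 0.02) and the linker protein genes Sun1 (0.0085) and Sun2 (0.10) did not pass the test. With either KD library or C replicate 2 left out, 2 members were called lower and 1 higher, and without C replicate 1 they were 7 and 2. The calls of Lmnb1, Lmnb2 and Tmem43 stood with any 1 of the 4 libraries left out.

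**Figure D1:**
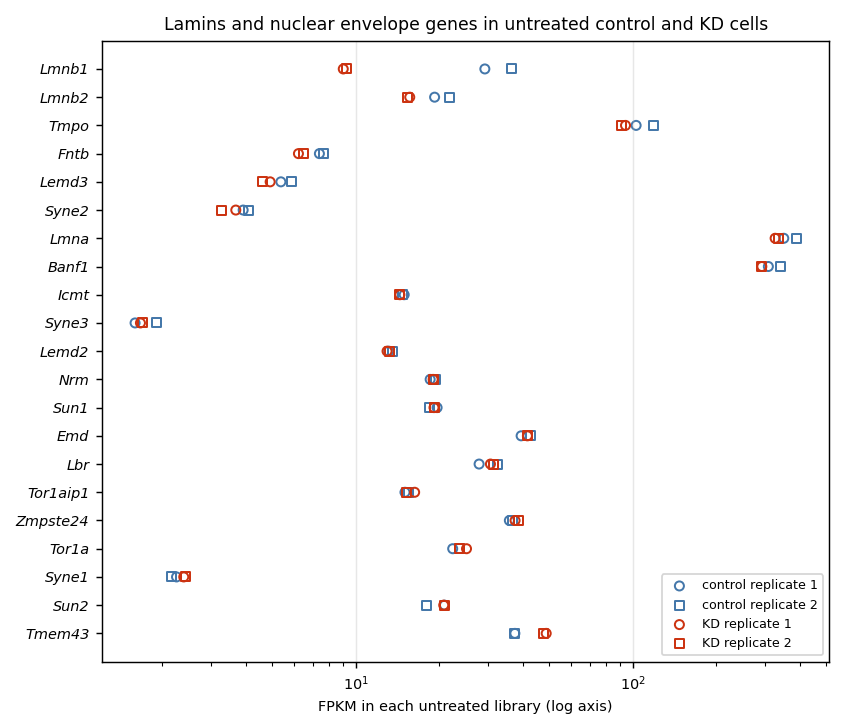
FPKM of each of the 21 lamina and nuclear envelope genes (rows) in the 4 untreated libraries (log axis), with C libraries in blue and KD libraries in red, circles for replicate 1 and squares for replicate 2. Lmnb1 is the gene whose groups lie farthest apart, at 29.2 and 36.5 FPKM in C cells and 9.01 and 9.27 FPKM in KD cells, while the next largest fall, that of Lmnb2, was -0.38.

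Across all genes, 1213 were higher and 1041 were lower in KD cells. Most of these differences were small. The called genes had a median size of 0.31, with quartiles of 0.23 and 0.43, and only 45 of those higher and 22 of those lower reached a 2-fold difference. All 2254 called genes had KD libraries that did not overlap the C libraries, beside 62.4% of all genes tested. With the libraries scaled by median ratios, 1447 genes were higher and 765 were lower, so that 65.4% of the calls were rises in place of 53.8%. When the fit held only the 4 untreated libraries, 412 genes were called higher and 320 lower. Leaving out KD replicate 1 gave 411 higher and 278 lower, and leaving out KD replicate 2 gave 473 and 265. Of 194 called genes besides Lmnb1 that were named for size or belonged to a list, 107 lost their call without KD replicate 1 and 106 without KD replicate 2, so genes whose calls stood with any 1 library left out are pointed out below. Differences of at least 2 that were not called belonged to 34 genes, and all 34 were small RNA genes.

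**Figure D2:**
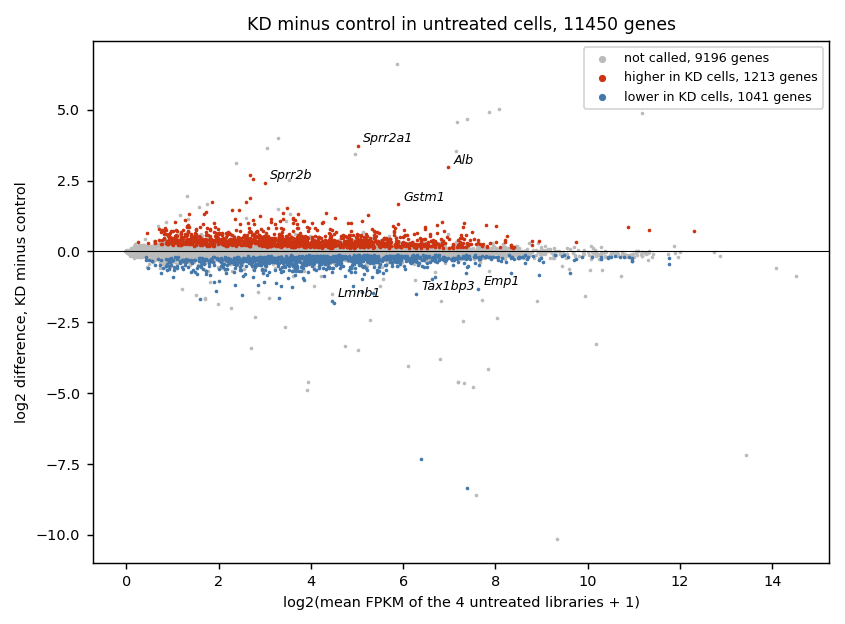
Log2 difference between KD and C cells for each of the 11450 genes (vertical axis) against log2 of the mean FPKM of the 4 untreated libraries plus 1 (horizontal axis). Red points are the 1213 genes called higher, blue points the 1041 called lower and grey points genes not called, and most called genes lie within 0.5 of the zero line.

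Rises and falls were ranked among called genes with a higher group mean of at least 5 FPKM and no overlap between groups. Small RNA genes and clone or model names were left out. The largest rise so ranked was that of Sprr2a1, a small proline-rich gene of the cornified envelope, the protein shell that covers stratified epithelia. Sprr2a1 was at 4.06 and 3.09 FPKM in C cells and at 62.6 and 55.7 FPKM in KD cells. The KD mean was 16.6-fold the C mean, and the log2 difference was 3.72 (SE 0.12, adjusted p = 1.81e-06). Sprr2b followed it, from 1.28 and 1.71 FPKM to 13.9 and 11.1 FPKM (2.43, SE 0.13, adjusted p = 2.64e-05). Sprr2h was already abundant, at 84.1 and 128 FPKM, and rose to 201 and 223 FPKM (1.02), and Sprr1a was at 4026 and 3614 FPKM and then 6316 and 6363 FPKM (0.73, adjusted p = 0.0472, a call lost when any 1 of the 4 libraries was left out). The family did not move as one. Sprr2k fell from 1.35 and 1.92 FPKM to 0.298 and 0.508 FPKM (-0.91), and Sprr2g and Sprr1b had differences of -0.03 and -0.16 that did not pass the test. Sprr2 genes are near-identical copies, so the share of reads assigned to each one is uncertain.

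The promoters of the genes with the strongest rise of this family are shown for the stretch that they share. They cover 250 bases before and 50 bases after the transcription start from RefSeq on GRCm38.p6, a later build than the mm9 build of the deposited data. Capitals mark the longest stretch that Sprr2a1 and Sprr2b share, 18 bases, which began at base 6 after the start in Sprr2a1 and at base -80 in Sprr2b. Of 27025 symbols with a promoter, 3 held that stretch, namely Sprr2a1, Sprr2a2 and Sprr2b. The promoter of Sprr2a2, a copy not analysed here, was identical to that of Sprr2a1 at all 300 bases. The Sprr2a1 window is chr3:92215585-92215884 on the plus strand, and the Sprr2b window is chr3:92316455-92316754 on the plus strand.
Sprr2a1: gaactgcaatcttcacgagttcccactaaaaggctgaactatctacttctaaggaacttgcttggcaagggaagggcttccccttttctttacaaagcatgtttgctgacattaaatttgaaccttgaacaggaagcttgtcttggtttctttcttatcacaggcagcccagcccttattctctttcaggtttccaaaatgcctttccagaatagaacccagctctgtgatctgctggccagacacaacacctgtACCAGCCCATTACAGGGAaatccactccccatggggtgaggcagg
Sprr2b: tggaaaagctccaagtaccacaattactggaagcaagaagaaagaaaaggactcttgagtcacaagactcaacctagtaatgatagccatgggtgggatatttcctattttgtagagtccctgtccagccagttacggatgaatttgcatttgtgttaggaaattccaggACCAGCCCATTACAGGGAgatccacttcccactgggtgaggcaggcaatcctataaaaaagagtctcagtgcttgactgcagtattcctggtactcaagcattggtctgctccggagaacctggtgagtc

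Alb, the gene of serum albumin, was at 36.0 and 20.9 FPKM in C cells and at 218 and 226 FPKM in KD cells, which is 7.80-fold by group means (2.97, SE 0.20, adjusted p = 4.98e-05). Apoa1, the main protein of high-density lipoprotein, rose from 0.991 and 0.879 FPKM to 10.2 and 10.8 FPKM (2.57, SE 0.06, adjusted p = 1.71e-07). Both groups were far apart in these genes, and the C libraries of Alb were also apart from each other. Ttr, which carries thyroid hormone and the retinol-binding protein, was at 7.30 and 3.07 FPKM in C cells and 15.1 and 12.8 FPKM in KD cells (1.36, adjusted p = 0.0108), a call that was lost without KD replicate 1 (adjusted p = 0.0806) or KD replicate 2 (adjusted p = 0.0503). On mm9, Alb lies on chromosome 5 from 90889915 to 90905629 on the plus strand, and Apoa1 on chromosome 9 from 46036663 to 46038549 on the plus strand.

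Of 37 plasma protein genes made by the liver, a list drawn up after the values were seen, 19 were tested, 11 rose and none fell, with a median difference of 0.61. The 3 measured α1-antitrypsin copies Serpina1a, Serpina1b and Serpina1d rose by 1.07, 1.07 and 0.98, and their reads cannot be firmly split between copies. Itih2, which binds hyaluronan in serum, rose by 1.13, and Lbp, which presents bacterial lipopolysaccharide, by 1.09. The calls of Alb, Apoa1, Itih2 and Serpina1d stood with any 1 library left out. Apoe, Hpx and Trf (-0.12, 0.28 and -0.04) did not pass the test. The C libraries stood apart in many of these genes. Without C replicate 2 the list had 6 genes called higher and a median of 0.24, and without C replicate 1 it had 14 called higher, 1 lower and a median of 0.75. Without KD replicate 1 or KD replicate 2 it had 4 called higher.

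Enzymes that conjugate or cleave foreign compounds rose as well. Gstm1, a glutathione S-transferase, was at 33.6 and 21.9 FPKM in C cells and 89.2 and 87.2 FPKM in KD cells (1.67, SE 0.24, adjusted p = 0.00281). The lists of glutathione S-transferases, carboxylesterases and cytochrome P450 genes were also chosen after the values were seen. Their counts are descriptions, beside 10.6% higher and 9.09% lower over all tested genes. No change of the cytochrome P450 list as a whole is drawn from its counts. Each of them holds a gene among the 15 largest rises. Of 12 glutathione S-transferases tested 8 rose and all 12 differences were above 0, from 0.11 to 1.67. The most abundant of them, Gsto1, rose from 764 and 756 FPKM to 970 and 942 FPKM (0.33). When C replicate 2 or either KD library was left out 5 of the 12 were called, and the calls of Gstm1 and Gsto1 stood in each case. Of 6 carboxylesterases tested, the 5 Ces2 genes rose, and these 5 calls stood with any of the 4 libraries left out. Ces2g was at 21.9 and 19.9 FPKM in C cells and 55.2 and 50.3 FPKM in KD cells (1.29), and Ces2e at 1.67 and 1.49 FPKM and 6.07 and 6.22 FPKM (1.47). Among 18 cytochrome P450 genes, by contrast, 2 rose and 2 fell (6 and 2 without C replicate 1), with Cyp2c65 at 1.46 the largest. Aldh3a1, an aldehyde dehydrogenase of surface epithelia, rose from 10.9 and 9.53 FPKM to 29.9 and 25.98 FPKM (1.37).

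The remaining genes among the 15 largest rises came from varied groups. Gjb1, the gap junction protein connexin 32, was at 2.33 and 1.16 FPKM in C cells and 9.31 and 8.73 FPKM in KD cells (1.90). Sema4g, a membrane-bound semaphorin, rose by 1.76, the peptide hormone gene Uts2b by 1.55, and Sptssb, a subunit of the enzyme that starts sphingolipid synthesis, by 1.31. BC002163 was at 1.71 and 0.0119 FPKM in C cells, and its rise of 2.72 lost its call without C replicate 2 (2.01, adjusted p = 0.142), KD replicate 1 (2.89, adjusted p = 0.109) or KD replicate 2 (2.54, adjusted p = 0.140). In 14 of these 15 genes C replicate 1 lay above C replicate 2. The same was true of 68.3% of all genes called higher, 43.2% of those called lower and 56.1% of all tested genes. The part of this replicate difference in the calls was not tested.

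**Figure D3:**
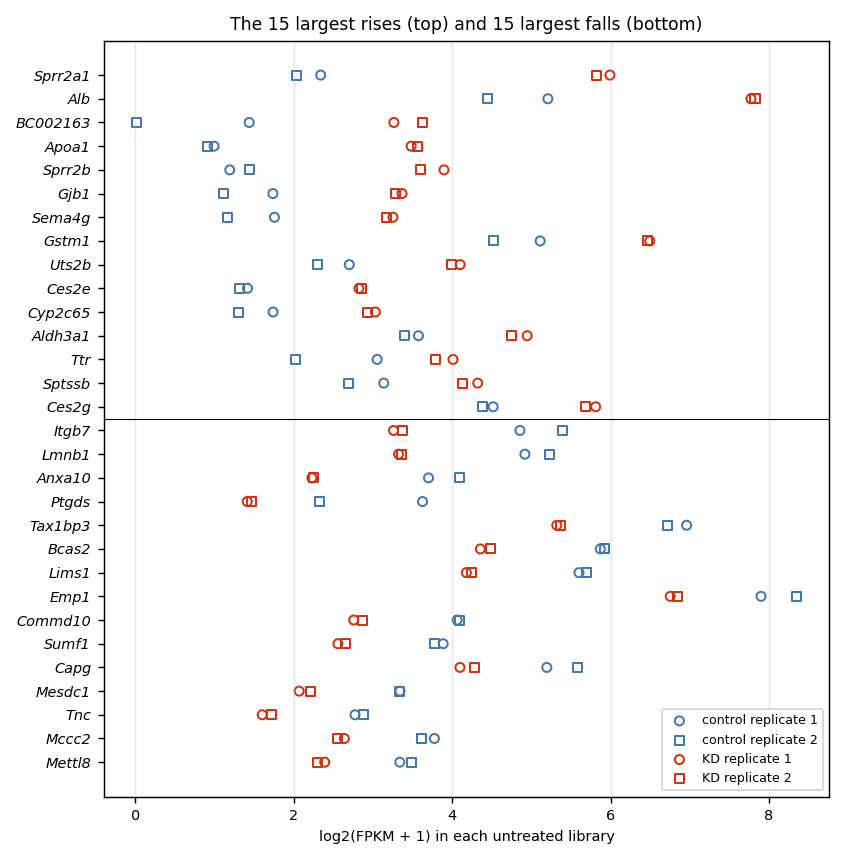
Log2 of FPKM plus 1 in each untreated library for the 15 genes with the largest rises (above the line) and the 15 with the largest falls (below it), C libraries in blue and KD libraries in red, circles for replicate 1 and squares for replicate 2. No overlap between KD and C libraries was a condition for choosing these genes, and 62.4% of all tested genes met it. The C replicates lie apart in Alb (36.0 and 20.9 FPKM), BC002163 (1.71 and 0.0119 FPKM) and Ptgds (11.3 and 4.01 FPKM).

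By the same ranking as for the rises, the largest fall was that of Itgb7, an integrin β chain best known from lymphocyte homing. It was at 28.0 and 40.8 FPKM in C cells and at 8.58 and 9.37 FPKM in KD cells (-1.80, SE 0.15, adjusted p = 0.000178). On mm9 it lies on chromosome 15 from 102046426 to 102062366 on the minus strand, with a lamin B1 peak of untreated parental cells in or just upstream of it. Anxa10, an annexin of gastric and other epithelia, fell from 12.01 and 16.0 FPKM to 3.69 and 3.74 FPKM (-1.66). Ptgds, which makes prostaglandin D2, was at 11.3 and 4.01 FPKM and then 1.66 and 1.77 FPKM (-1.54), and its call was lost without KD replicate 1 (adjusted p = 0.0852) or KD replicate 2 (adjusted p = 0.0721).

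Lims1, Bcas2 and Tax1bp3, genes of general cell functions, fell to between 34.8% and 35.7% of the C mean. Lims1, the gene of PINCH1, which links integrins to the actin cytoskeleton through integrin-linked kinase, was at 47.6 and 50.7 FPKM in C cells and 17.1 and 17.9 FPKM in KD cells (-1.44, SE 0.05, adjusted p = 1.81e-06). Bcas2, a component of the spliceosome, fell from 57.5 and 59.9 FPKM to 19.5 and 21.4 FPKM (-1.48, SE 0.10), and Tax1bp3, a PDZ domain protein, from 124 and 105 FPKM to 39.0 and 40.4 FPKM (-1.49, SE 0.13). In each of these 3 genes the libraries within a group were close and the groups far apart. Emp1, an epithelial membrane protein and the most abundant of the 15 falls, fell from 238 and 325 FPKM to 107 and 114 FPKM (-1.32).

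Smaller falls of the same kind were found for Commd10 (-1.27), Sumf1, which activates sulfatases (-1.23), Mesdc1 (-1.19), Mccc2, a subunit of a leucine-degrading carboxylase (-1.10), and the methyltransferase gene Mettl8 (-1.07). Capg, which caps actin filaments, was at 35.6 and 47.1 FPKM in C cells and 16.1 and 18.4 FPKM in KD cells (-1.20). Tnc, the matrix protein tenascin C, was at 5.83 and 6.38 FPKM and then 2.03 and 2.29 FPKM (-1.17). Its SE of 0.34 came from the spread within groups over all 12 libraries, treated ones included. Its call stood near the threshold (adjusted p = 0.0444) and was lost when any 1 of the 4 libraries was left out, with adjusted p from 0.0949 to 0.185.

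Targets of p53 and inhibitors of cyclin-dependent kinases are read here because loss of B-type lamins is known for its link to cell cycle exit. Of 20 such genes tested 8 rose and none fell (median difference 0.18), beside 10.6% higher and 9.09% lower over all tested genes. Cdkn1a, which encodes the kinase inhibitor p21, was at 126 and 121 FPKM in C cells and 176 and 172 FPKM in KD cells (0.49, SE 0.08, adjusted p = 0.00544). Mdm2, the ubiquitin ligase that degrades p53, rose from 83.1 and 91.8 FPKM to 146 and 144 FPKM (0.73, adjusted p = 0.00342), and Fas, a death receptor, from 8.97 and 6.70 FPKM to 16.4 and 15.8 FPKM (0.96, adjusted p = 0.000768). Btg2 (0.75), Gdf15 (0.70), Sesn2 (0.39), Eda2r (0.38) and Plk2 (0.19) also rose. The inhibitors Cdkn2a and Cdkn1b (0.07 and -0.09), Trp53 itself (-0.10) and the death genes Bax and Bbc3 (-0.04 and 0.12) did not pass the test. Without KD replicate 1 or KD replicate 2, 5 of the 20 genes were called higher, and the calls of Cdkn1a, Mdm2, Fas and Sesn2 stood with any 1 library left out. At 8 h of TGF-β 6 of the 20 were higher in KD cells and 1 was lower, beside 19.3% and 16.5% of all tested genes. At 24 h 4 were higher and 1 was lower, beside 16.8% and 11.5%.

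Among 25 proliferation genes 5 fell and none rose (median -0.11), beside 9.09% lower and 10.6% higher over all tested genes. The 5 were the mitotic genes Plk1, which fell by 0.51 on the log2 scale, Ccnb1 (-0.40), Cdc20 (-0.36), Bub1b (-0.35) and Ccna2 (-0.31). The replication gene Mcm2 (-0.04), the proliferation marker Mki67 (-0.11) and Cdk1 (-0.09) did not pass the test. C replicate 2 was the highest of the 4 libraries in all 25 genes, as for Mki67, which was at 41.6 and 52.7 FPKM in C cells and 43.0 and 43.9 FPKM in KD cells. Without C replicate 2 no gene of the list was called and the median was 0.0073, and without C replicate 1 there were 10 called lower and a median of -0.26. No gene of the list was called when either KD library was left out. At 8 h of TGF-β 18 of the 25 were lower in KD cells (median -0.36), beside 16.5% of all tested genes. At 24 h 23 were lower (median -0.66), beside 11.5%.

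YAP and its DNA-binding partners, the TEAD factors, carry signals of cell shape and tension into the nucleus. Of 16 genes of the pathway 5 rose and 4 fell, beside 10.6% higher and 9.09% lower over all tested genes. The rises were targets, while the falls included the factors. Ctgf, a secreted matrix protein, was at 75.5 and 72.0 FPKM in C cells and 148 and 157 FPKM in KD cells (1.04, SE 0.07, adjusted p = 6.31e-05). Cyr61, its relative, rose from 45.9 and 48.0 FPKM to 75.5 and 85.0 FPKM (0.76), and Ankrd1, a nuclear ankyrin repeat protein, from 147 and 129 FPKM to 205 and 236 FPKM (0.67). The C libraries of these 3 genes were close to each other. Amotl2 (0.28) and Crim1 (0.32) rose less. Yap1 fell from 40.8 and 40.6 FPKM to 27.7 and 27.5 FPKM (-0.54, SE 0.03, adjusted p = 4.66e-05), together with the kinase gene Lats1 (-0.27), Ajuba (-0.35) and Tead2 (-0.60). Tead2 lost its call without C replicate 1 (adjusted p = 0.195), KD replicate 1 (adjusted p = 0.161) or KD replicate 2 (adjusted p = 0.189). The paralog gene Wwtr1, which encodes TAZ, was at -0.05, and Tead1 and Tead4 were at -0.05 and 0.02, none of them past the test. The calls of Ctgf, Cyr61, Ankrd1, Yap1 and Ajuba stood with any 1 library left out, while the list had 3 genes called higher without C replicate 2 or either KD library and 2 lower without KD replicate 2.

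The promoters of Ankrd1 and Cyr61 (named Ccn1 in RefSeq) are shown for the TEAD motif GGAATG, searched on both strands. Ankrd1 held 2 matches, which began at bases -210 and -123, and Ccn1 held 1 at base -103, all in capitals. The motif is common, with a match in 14.7% of all promoters, and it was present in 17.3% of 950 genes called higher, 12.4% of 798 called lower and 14.4% of 8667 tested genes. The Ankrd1 window is chr19:36119795-36120094 on the minus strand and the Ccn1 window chr3:145649936-145650235 on the minus strand of GRCm38.p6.
Ankrd1: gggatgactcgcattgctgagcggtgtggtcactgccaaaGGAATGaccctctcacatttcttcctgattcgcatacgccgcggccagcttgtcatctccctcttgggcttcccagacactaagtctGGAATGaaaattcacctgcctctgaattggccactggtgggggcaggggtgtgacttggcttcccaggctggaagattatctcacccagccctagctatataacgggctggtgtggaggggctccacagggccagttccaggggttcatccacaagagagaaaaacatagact
Ccn1: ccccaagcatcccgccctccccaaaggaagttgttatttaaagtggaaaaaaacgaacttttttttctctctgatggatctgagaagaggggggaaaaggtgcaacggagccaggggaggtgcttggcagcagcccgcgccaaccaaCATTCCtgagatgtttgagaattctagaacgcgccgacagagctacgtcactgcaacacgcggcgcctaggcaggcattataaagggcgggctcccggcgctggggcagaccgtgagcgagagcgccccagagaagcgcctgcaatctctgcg

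Adhesion genes changed in both directions. Of 19 integrin and laminin chains 5 rose and 4 fell, beside 10.6% higher and 9.09% lower over all tested genes. The rises were those of Itga1 (0.49), Itga2 (0.54), Itgb1 (0.25), Itgb3 (0.16) and Itgb5 (0.45), chains that bind collagen and other matrix proteins. Besides Itgb7, the falls included those of the laminin chain gene Lamb3 (-0.39) and the fibronectin receptor chain gene Itga5 (-0.18). Itga2 lost its call without C replicate 1, KD replicate 1 or KD replicate 2 (adjusted p from 0.0887 to 0.138). Without C replicate 1 the list had 3 genes called higher and 3 lower, without KD replicate 1 it had 2 and 3, and without KD replicate 2 it had 1 and 3. The calls of Itgb5, Itgb7 and Lamb3 stood in each case. Of 13 collagen chains 3 rose, Col4a1 (0.20), Col4a2 (0.38) and Col16a1 (0.27), and none fell, with 1 called higher without C replicate 1, C replicate 2 or KD replicate 1 and none without KD replicate 2. Vcl, the gene of vinculin at focal adhesions, was at 52.97 and 54.8 FPKM in C cells and 32.8 and 33.9 FPKM in KD cells (-0.68, SE 0.08, adjusted p = 0.000873).

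Genes of the epithelial to mesenchymal transition (EMT) were examined because TGF-β drives it in the treated cells of the same experiment. In untreated cells 1 of 15 epithelial genes rose and none fell (median -0.01), beside 10.6% higher and 9.09% lower over all tested genes. The 1 that rose was Dsp, the desmosomal plaque protein (33.9 and 32.6 FPKM in C cells, 47.8 and 46.0 FPKM in KD cells, 0.48, adjusted p = 0.00903), which lost its call without KD replicate 1 (adjusted p = 0.0699). Cdh1 was at 0.13, Tjp1 at -0.01 and Ocln at 0.20, none past the test. Among 19 mesenchymal genes 2 rose, Ctgf and the transcription factor gene Twist2 (0.48), and 4 fell. The falls were those of Tnc, Itga5, Snai1 (-0.31), which was no higher than 1.25 FPKM in the 4 libraries, and S100a4. S100a4, a calcium-binding protein of motile cells, went from 922 and 1065 FPKM to 551 and 613 FPKM (-0.77, SE 0.09, adjusted p = 0.00114). Fibronectin (Fn1) was at 34.8 and 30.6 FPKM in C cells and 45.0 and 46.2 FPKM in KD cells. Its difference of 0.47 had an SE of 0.30, again from all 12 libraries, and did not pass the test (limma, adjusted p = 0.303). Vimentin (Vim, -0.14), N-cadherin (Cdh2, -0.06) and Zeb1 (-0.08) did not pass it. Without C replicate 2 or either KD library the list had 1 gene called higher, Ctgf, and 1 lower, S100a4, and without C replicate 1 it had 1 and 2.

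Of 24 genes of TGF-β signalling 3 rose and 1 fell (median -0.01), beside 10.6% higher and 9.09% lower over all tested genes. No change of the list as a whole is drawn from these counts. Tgfbr2, the receptor chain that binds the ligand, was at 23.8 and 23.1 FPKM in C cells and 31.2 and 32.0 FPKM in KD cells (0.41, SE 0.05, adjusted p = 0.000683). Id2, a target that blocks helix-loop-helix factors, rose by 0.38 and the inhibitor gene Smad7 by 0.27, while Smad4, the Smad shared by all branches, went to -0.20. Tgfb1 (-0.13), Tgfbr1 (-0.11) and Smad3 (0.15) did not pass the test. Without KD replicate 1 or KD replicate 2, 1 gene of the list was called higher, Tgfbr2, and none lower, and without C replicate 2 there were 1 and 3.

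Cholesterol synthesis also supplies the farnesyl group of lamins. Of its 21 genes 7 fell and 1 rose (median -0.25), beside 9.09% lower and 10.6% higher over all tested genes. Idi1, which isomerises the isoprenoid unit, was at 45.6 and 50.7 FPKM in C cells and 32.7 and 32.9 FPKM in KD cells (-0.54, SE 0.07, adjusted p = 0.00141). Insig1, the sterol sensor (-0.47), Cyp51 (-0.43), Mvd (-0.38), Stard4 (-0.27) and Sqle (-0.17) were among the others that fell, and Dhcr7, the last enzyme of a branch, rose (0.27). Hmgcs1 was listed at 0 in all 4 libraries. Without KD replicate 1 the list had 1 gene called lower, without KD replicate 2 it had 2, and without C replicate 2 it had 4. The call of Idi1 stood in each case.

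Of 29 genes of chromatin and genome architecture 8 fell and 1 rose (median -0.16). Over all tested genes 9.09% were lower and 10.6% higher. Hmgb2, a DNA-bending protein, was at 71.7 and 85.6 FPKM in C cells and 51.2 and 51.2 FPKM in KD cells (-0.60), a call lost without KD replicate 1 (adjusted p = 0.0622) or KD replicate 2 (adjusted p = 0.0587). Ctcf, which bounds chromatin loops (-0.18), Cbx1, a heterochromatin protein (-0.24), the H3K9 methyltransferase genes Ehmt1 and Ehmt2 (-0.17 and -0.25), Trim28 (-0.18) and the deacetylase genes Hdac2 and Hdac3 (-0.16 and -0.29) also fell, and Hdac1 rose (0.25). Of 28 nuclear pore genes 6 fell and 1 rose (median -0.09). Pom121, which anchors the pore in the membrane, had the lowest value (-0.50), and the 1 that rose, Nup210 (0.29), anchors it as well. Without C replicate 2 the chromatin list had 2 genes called lower and the pore list 4, without C replicate 1 they had 10 and 12, and without KD replicate 1 or KD replicate 2 the chromatin list had none and the pore list 2 and 3. The calls of Hdac1 and Pom121 stood in each case.

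Histone and ribosomal protein genes had medians below 0, at -0.25 over 27 clustered histone genes and -0.11 over 77 cytosolic ribosomal protein genes. Of the histone genes 3 fell, Hist1h4i (-0.82), Hist3h2a (-0.60) and Hist1h1d (-0.48), and none rose. Over all tested genes 9.09% were lower and 10.6% higher, and no change of the histone list is drawn from its count. Of the ribosomal genes 15 fell and none rose, by 0.13 to 0.32 on the log2 scale, as for Rpl12 (2140 and 2274 FPKM in C cells, 1793 and 1734 FPKM in KD cells). The lower calls numbered 6 without C replicate 2 and 1 without either KD library. Under quantile normalization the ribosomal median turned to 0.03 and no ribosomal gene was called, so no direction is drawn for them. Histone genes were called lower in 1 to 6 cases when 1 library was left out. In the respiratory chain 10 of 76 genes fell and 1 rose, and under quantile normalization 5 fell and 6 rose. No direction is drawn for that list either. Without KD replicate 1 or KD replicate 2 the respiratory list had 3 and 2 called lower.

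**Figure D4:**
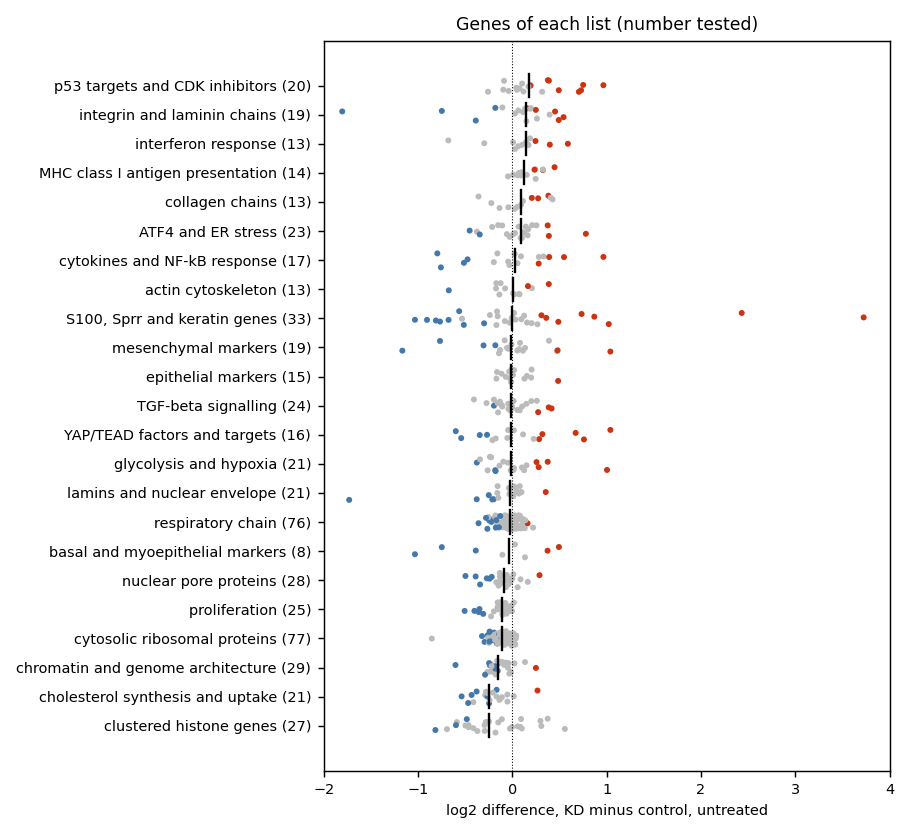
Log2 difference between untreated KD and C cells for every tested gene (points, red for higher, blue for lower, grey for not called) of each list with at least 8 genes tested, other than those drawn up after the values were seen, with the list median as a black bar and the median of all genes as a dotted line. Lists are ordered by median, from -0.25 for clustered histone genes at the bottom to 0.18 for p53 targets and CDK inhibitors at the top, and Sprr2a1 and Sprr2b lie far to the right at 3.72 and 2.43.

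Immune genes were read against the background of 10.6% higher and 9.09% lower. Of 13 interferon-response genes tested 3 rose, namely the RNA sensor gene Ddx58 (0.59), Mx1 (0.40) and Ifi35 (0.24), and none fell. Of 14 genes of MHC class I presentation 3 rose, the peptide transporter gene Tap1 (0.45), H2-T23 (0.32) and H2-T10 (0.23). Without C replicate 1 the interferon list had 5 genes called and the MHC list 6, and without either KD library the MHC list had 1, which without KD replicate 1 was none of the 3 named. The calls of Ddx58 and Mx1 stood in each case. Cytokine and NF-kB genes were split, with 4 of 17 higher and 4 lower. The chemokine gene Ccl20 was at 51.4 and 28.6 FPKM in C cells and 74.96 and 76.7 FPKM in KD cells (0.96), a call lost without C replicate 2 or either KD library, while Ccl2, which attracts monocytes, went from 235 and 177 FPKM to 120 and 121 FPKM (-0.76). C3 (-0.80), Il33 (-0.51) and Cxcl5 (-0.48) fell, and Mmp10 (0.55), Icam1 (0.39) and Tnfaip3 (0.28) rose. Without C replicate 2 none of the 17 was called higher and 3 were called lower, and without KD replicate 1 or KD replicate 2, 3 and none were higher and 1 was lower, which was Ccl2.

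Stress and metabolic lists were mixed, beside the same background of 10.6% higher and 9.09% lower. Of 23 ATF4 and ER stress genes 3 rose and 2 fell, led by Herpud1, which serves the removal of misfolded proteins (72.2 and 56.9 FPKM in C cells, 112 and 109 FPKM in KD cells, 0.78, adjusted p = 0.000950). Of 21 genes of glycolysis and hypoxia 4 rose and 3 fell. Egln3, an oxygen-sensing hydroxylase, was at 19.2 and 17.6 FPKM in C cells and 39.2 and 36.5 FPKM in KD cells (1.00, SE 0.06, adjusted p = 4.66e-05), and the glycolytic enzyme genes Aldoa (-0.38), Tpi1 (-0.18) and Pkm (-0.18) fell. Without KD replicate 2 the glycolysis list had 2 genes called higher and 1 lower, without KD replicate 1 it had 3 and 1, and without either of them the ATF4 list had 2 higher. Of 8 basal mammary markers Mylk (0.49) and Egfr (0.37) rose, and Krt14 fell from 4.65 and 4.14 FPKM to 1.71 and 1.55 FPKM (-1.03), as did Lamb3. None of 4 luminal markers tested was called in the fit of 12 libraries (limma), while quantile normalization called 2 of them lower. Among 33 S100, Sprr and keratin genes 8 rose and 8 fell, and Krt20, an intestinal keratin, rose from 58.1 and 65.1 FPKM to 118 and 109 FPKM (0.87). That list had 6 called higher and 3 lower without KD replicate 1, and 5 and 5 without KD replicate 2. The calls of Herpud1, Egln3, Aldoa, Krt14, Krt20, Mylk, Egfr and Lamb3 stood with any 1 library left out.

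Lamin B1 + genes were defined from the ChIP of untreated parental cells as genes with a lamin B1 peak between 2500 bp upstream of the transcription start and the gene's end on mm9. Of 11099 tested genes placed on mm9, 3706 were lamin B1 +. Among them 10.4% were higher and 10.8% lower in KD cells, beside 10.7% and 8.40% of the 7393 genes with no peak. The medians were -0.02 and -0.0040. Seen from the other side, 32.9% of the genes called higher, 39.3% of those called lower and 33.4% of all placed genes were lamin B1 +. Lamin B1 + genes were also the more highly expressed ones, with a median C level of 16.4 FPKM beside 11.5 FPKM. In genes from 10 to 100 FPKM the lower calls were 11.3% with a peak and 10.2% without, and in genes from 100 FPKM they were 21.5% and 12.2%. Genes whose peak had a MACS score of at least 100, 869 in all, had 13.5% lower and 10.0% higher. The ChIP had 1 library, and no test was made of these shares.

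Of the 15 largest falls 4 were lamin B1 +, and of the 15 largest rises 2. The strongest peak of these, with a score of 152, lay at the transcription start of Mesdc1, a gene on chromosome 7 from 91029005 to 91032851 on the minus strand of mm9. Mesdc1 was at 9.13 and 9.06 FPKM in C cells and 3.19 and 3.64 FPKM in KD cells. An ATAC peak, a mark of accessible chromatin in parental cells, lay within 500 bp of the start in 10 of the 15 falls and 1 of the 15 rises. Of all 11099 placed genes 6256 had such a peak, with a median C level of 16.4 FPKM beside 8.98 FPKM in genes without one. Lmnb1 itself had no lamin B1 peak.

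Knockdown effects in cells treated with TGF-β came from other libraries of the same experiment. At 8 h, where 19.3% of tested genes were higher and 16.5% lower in KD cells, 834 of the 1213 genes higher in untreated KD cells were higher again and 17 were lower. These 834 were 68.8% of the untreated rises and 37.7% of the rises at 8 h. At 24 h, with 16.8% higher and 11.5% lower, 650 were higher and 22 lower. Of the 1041 genes lower in untreated KD cells 612 were lower and 23 higher at 8 h, and 421 were lower and 29 higher at 24 h. At all 3 times 589 genes were higher and 376 were lower. The median difference of the untreated rises was 0.33 without TGF-β, 0.30 at 8 h and 0.21 at 24 h, and that of the falls was -0.29, -0.22 and -0.14. Both lists were chosen for their untreated values, so smaller values at other times are in part a property of the choice. The 3 comparisons came from the same fit, in which each gene had the same SE at each time. A gene with a small SE was thus favoured for a call at every time, and repeated calls are not independent.

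The test of the difference itself, the KD effect at a treated time minus the untreated effect, called 465 genes at 8 h (4.06%) and 540 at 24 h (4.72%). These counts moved with single untreated libraries, to 1485 and 1417 without C replicate 2, 42 and 92 without KD replicate 1 and 40 and 110 without KD replicate 2. The 24 h KD replicates lay farther apart than the other groups, with a median gap of 0.116. Of the 15 largest rises 13 were higher at 8 h and 5 at 24 h, and of the 15 largest falls 12 were lower at 8 h and 10 at 24 h. The rises had a median of 1.67 untreated and 0.21 at 24 h, while the falls had -1.32 and -0.96. The Alb difference was 3.45 at 8 h and 0.37 at 24 h, and that of Apoa1 was 0.83 and 0.01. Lims1 was at -1.24 and -1.37, Bcas2 at -1.48 and -1.17, Tax1bp3 at -1.46 and -1.26 and Lmnb1 at -1.90 and -1.50. Itgb7 was at -0.39 and -0.15, neither past the test. The 2 treated effects and the untreated one rest on separate control libraries, but on a shared estimate of the spread of each gene.

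**Figure D5:**
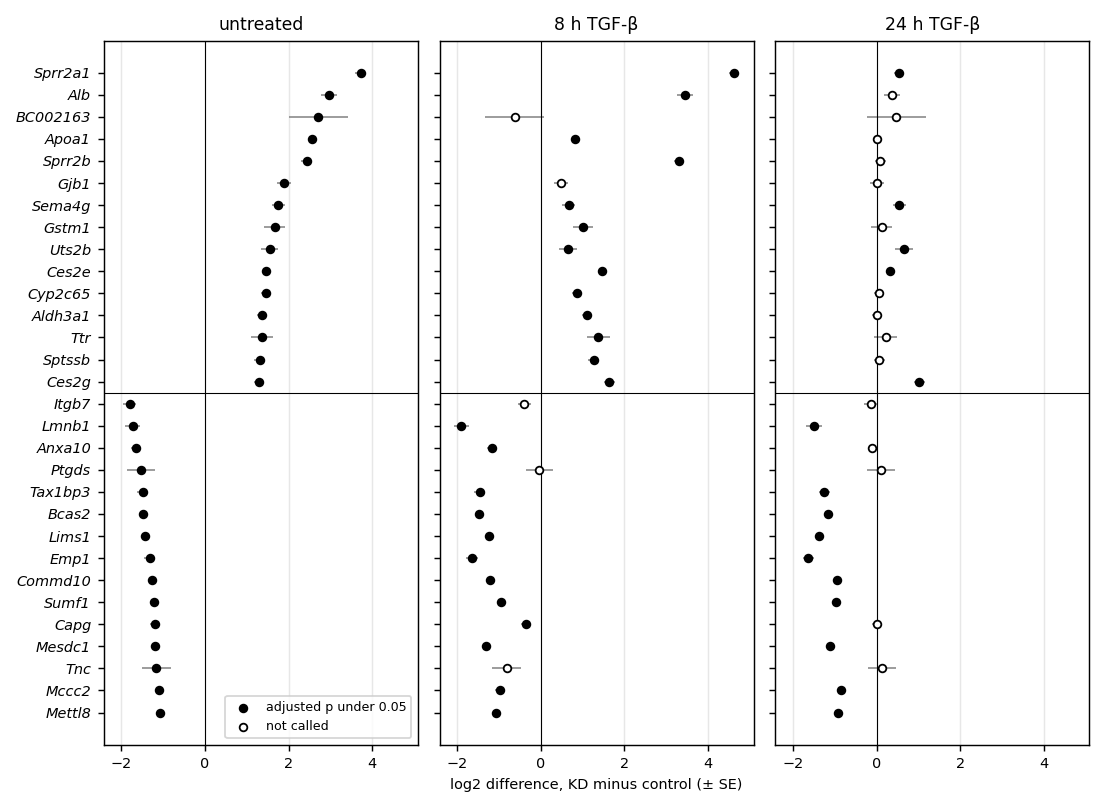
Log2 difference between KD and C cells (horizontal axis, points with SE bars) for the 15 largest rises (top) and the 15 largest falls (bottom) in untreated cells and after 8 and 24 h of TGF-β, filled where the adjusted p was under 0.05. At 24 h only 5 of the 15 rises are filled, and Alb lies at 0.37, while 10 of the 15 falls stay lower at both treated times.

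The response of parental NMuMG cells to TGF-β, measured in 6 libraries of their own, gives a reading of the same genes that does not use the KD libraries. Of the genes called in untreated KD cells 1131 rises and 1013 falls were tested there. At 24 h of TGF-β, when 33.3% of 10843 genes were higher and 37.3% lower, 34.2% of the KD rises were higher and 44.8% lower, and 31.0% of the KD falls were higher and 45.8% lower. All 12 of the largest KD rises that were tested in parental cells fell with TGF-β at 24 h, with a median of -1.87 on the log2 scale, Alb at -2.97 and Aldh3a1 at -3.80. Of the 15 largest KD falls 6 were lower and 6 higher at 24 h, with Itgb7 at -4.57, Anxa10 at -4.74 and Capg at 1.05. Lmnb1 was at -0.95 in parental cells at 24 h. Ctgf, Cyr61 and Ankrd1, higher in untreated KD cells, rose with TGF-β by 2.76, 1.71 and 1.29.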

How the data were processed

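RNA-seq libraries of untreated C and KD cells (2 each) were analysed with the other 8 libraries of the shRNA experiment. The authors deposited FPKM values in a table with no header, whose 12 columns were identified by the order in which the deposited description names them. The submitters' processing notes name Bowtie, TopHat and Cufflinks and the build mm9, with no versions. Strand use is not given in the sources used here. Depth is unknown, since FPKM values hold no read counts. The authors called peaks with MACS on mm9, and the deposited score column was used for lamin B1 (4645 peaks, lowest score 50) and for ATAC (9782 peaks). Hi-C files were left out, and some list members are not reported here.

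FPKM was analysed as log2(FPKM + 1), which understates changes of low genes. Genes that reached 1 FPKM in 2 or more libraries entered 1 model of all 12 libraries in limma 3.58.1 under R 4.3.3, with moderated variances that followed a trend on the mean level, two-sided, and called at a Benjamini-Hochberg adjusted p under 0.05. An exact permutation test of 2 libraries against 2 cannot go below p = 0.333, so none was used. Parental libraries were fitted separately. Gene positions came from the GENCODE M1 annotation of mm9 (10473 by symbol, 626 by an older symbol, 122 ambiguous, 229 without a match). The gene lists, the comparison and the tests were chosen with earlier results of these data known. Named genes were list members and the 15 largest rises and 15 largest falls among called genes with a higher group mean of at least 5 FPKM and no overlap between groups, leaving out small RNA genes (0 higher, 2 lower) and clone or model names (28 higher, 29 lower). The fit was tested on simulated data. Other steps used Python 3.11.15, numpy 2.4.6, pandas 2.3.3, scipy 1.17.1 and matplotlib 3.10.9.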

Additional observations from a re-analysis of the deposited data

Results flagged for a closer look

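For 14 of the 30 genes with the largest differences in untreated cells, the KD effect differed between times by a test of the difference itself (interaction contrast, limma, adjusted p under 0.05 over all genes tested). The genes were chosen for their untreated size, which favours a smaller effect elsewhere. At 24 h the effect was lower than in untreated cells by interaction values of -3.19 for Sprr2a1, -2.60 for Alb, -2.56 for Apoa1, -2.34 for Sprr2b, -1.90 for Gjb1 and -1.21 for Sema4g. The values were -1.55 for Gstm1, -1.40 for Cyp2c65, -1.36 for Aldh3a1, -1.25 for Sptssb and -1.14 for Ces2e.

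Among the genes that fell, the 24 h difference was 1.66 for Itgb7, 1.56 for Anxa10 and 1.21 for Capg. At 8 h it was 1.41 for Itgb7 and 0.84 for Capg. The 8 h values of the rises were -1.74 for Apoa1, -1.42 for Gjb1 and -1.09 for Sema4g, and 0.91 for Sprr2a1 and 0.87 for Sprr2b, whose rise in KD cells was larger at 8 h than in untreated cells.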

How the results depend on the processing

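Lmnb1 kept its call under each of the 12 alternatives that give it a value. The number of genes called stayed within 1.5 times of 2254 with an added constant of 0.1, no filter, either scaling, no trend and the replicate block (2140). A 2-fold minimum left 67 genes (45 higher, 22 lower), and 30 and 53 for the differences in effect at 8 and 24 h. The fit of only the 4 untreated libraries gave 732 (412 higher, 320 lower). With 1 untreated library left out, where the lone library of a group is taken to vary like the other groups, the count ran from 689 (without KD replicate 1) to 2506 (without C replicate 1), with 411 to 1454 higher and 265 to 1052 lower, and from 40 to 1485 and 92 to 1417 for the differences at 8 and 24 h, highest without C replicate 2. Of the 2254 calls, 683 remained without KD replicate 1 and 731 without KD replicate 2.

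By replicate number, the libraries showed no positive pairing untreated or at 8 h, but some at 24 h. Correlations of same-numbered deviations were -0.14 untreated, -0.11 at 8 h and 0.37 at 24 h. The replicate block gave 284 and 377 genes for the differences at 8 and 24 h, and the block with the untreated KD numbers crossed, added after seeing the data, gave 2058 untreated and 265 and 345 for the differences. The cause was not tested.

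Of 194 called list and named genes besides Lmnb1, quantile normalization turned Rps20 (0.020) and Rps3 (0.0071), and 107 and 106 lost their call without KD replicate 1 or 2. With a peak score of at least 100, 13.5% of lamin B1 + genes were lower. FPKM values hold no depth, so precision rests on 2 libraries per group.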

Other observations

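Among genes outside the lists, described after their values were seen, Hnf4a, a transcription factor of liver and gut, was at 80.1 and 67.7 FPKM in C cells and at 105 and 98.1 FPKM in KD cells. Its difference was 0.46 (limma, adjusted p = 0.00927), and it was 1.35 larger at 24 h of TGF-β than in untreated cells (adjusted p of the difference 0.00132). Foxa1 (-0.22) and Foxa2 (0.18) did not pass the test in untreated cells. The paired receptor genes Pilra, Pilrb1 and Pilrb2, neighbours in sequence whose reads may be shared, were at 10.5 and 9.25, 10.97 and 11.8, and 5.53 and 5.28 FPKM in C cells. In KD cells they were at 20.1 and 21.6, 24.5 and 25.1, and 12.7 and 12.6 FPKM, with differences of 1.01, 1.06 and 1.09.

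On the X chromosome 6.0% of 336 tested genes were higher and 11.9% lower in KD cells, with a median difference of -0.07. Over all tested genes the shares were 10.6% and 9.09%. Chromosome 15 had 9.45% higher and 12.1% lower, and chromosome 1 had 14.4% and 7.43%. The share of lower genes was thus not particular to the X chromosome. Its median and its share of higher genes were the lowest of the chromosomes compared. Next were chromosome 10 for the median (-0.03) and chromosome 11 for the share of higher genes (8.30%).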
